A study of Homo sapiens with 7 samples.

Results

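The alcohol dehydrogenase cluster and DAPP1 lie in band 4q23 of human chromosome 4, and the peaks of 5-hydroxymethylcytosine (5hmC) there are described gene by gene. The members were METAP1, ADH5, ADH4, ADH6, ADH1A, ADH1B, ADH1C, ADH7 and DAPP1, with the gaps between them. They are 9 of the 16814 protein-coding genes of at least 5 kb in the RefSeq table, and the locus from the start of METAP1 to the end of DAPP1 is 876.6 kb long (chr4:98995721-99872333, hg38). It was chosen with the knockdown and control peaks of these same libraries in view: the percent of each gene covered by peaks and the peaks found in 1 group only. All values of members, gaps and locus between the groups are therefore given as a description, with no test.

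The cells were SH-SY5Y, a human neuroblastoma line of sympathetic, noradrenergic character. The control group (shNC, genotype given as control) carried a lentiviral vector with a U6-driven control hairpin, and the knockdown group (shTDP-43) carried the same vector with a hairpin against TDP-43, an RNA- and DNA-binding protein. Lentivirus was packaged in 293T cells. Puromycin selection and maintenance are described for the stable knockdown cells, and whether either group was a pool or a single clone is not stated. Each group had 3 libraries made by hMe-Seal, in which 5hmC is tagged with an azide-bearing glucose, coupled to biotin, pulled down and sequenced. No label ties the libraries of a group to separate cultures, and a p-value here therefore reflects the spread between libraries, part of which may be technical. Peaks come from bulk DNA, so fewer cells carrying 5hmC and less 5hmC per cell cannot be told apart.

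Values of the libraries are given in the order of their numbers, 1 to 3, in each group. The control lists held 117949, 157157 and 126966 peaks, and the knockdown lists 142605, 119820 and 130412. They covered 80.8, 111 and 85.0 Mb in the controls and 98.8, 78.2 and 89.4 Mb in the knockdowns. Control 2 had the most peaks of the 6 lists and knockdown 1 the second most. Sequencing depth is unknown, since the lists hold no read totals. A background in reads per position was implied by the commonest pairs of fold and p-value. This background was 2.48, 4.77 and 2.85 in the controls and 2.27, 1.65 and 2.24 in the knockdowns, every knockdown being below every control. It is an uncertain measure of depth, most of all for control 2, whose values may have been scaled. Of 8 noradrenergic marker genes, 6 had a peak, with a median coverage over the 8 of 20.5% in the controls and 22.3% in the knockdowns, and PHOX2A and HAND2 had none. Of the liver markers 4 of 10 had a peak and of the B-cell markers 2 of 8, and the median coverage of both lists was 0 in every library. Of 3 marker genes of the 293T packaging line 2 had a peak, with medians of 15.5% and 14.9% in the 2 groups. A peak shows 5hmC and not expression, so these counts do not identify the cells.

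5hmC is made from 5-methylcytosine by the TET enzymes, almost always at CG dinucleotides (CpG), and in many cell types it is found within the bodies of expressed genes and at enhancers more than at active CpG-rich promoters. The alcohol dehydrogenases oxidise alcohols to aldehydes with NAD, and their genes arose by duplication and stand in a row on the same strand. The class I enzymes ADH1A, ADH1B and ADH1C clear ethanol, mainly in liver. ADH4 is a class II enzyme of liver, ADH7 a class IV enzyme of stomach and other epithelia that oxidises retinol, and ADH6 a class V enzyme. ADH5, the class III enzyme, is present in nearly all tissues and removes formaldehyde bound to glutathione. METAP1 encodes a methionine aminopeptidase that trims the first methionine from new proteins, and DAPP1 encodes an adaptor with SH2 and PH domains that binds phosphoinositides and is best known in B-cell receptor signalling.

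The upstream sequences of the genes, the only stretches in which CpG was counted, differ in how many CpG they hold. Those of the genes that the results turn on, and of the class I genes for contrast, are printed 5′ to 3′ on the gene's own strand from RefSeq (GRCh38.p14). Each is the 250 bases before the gene's start, in lower case with every CpG in capitals. They are ADH5 (chr4:99088789-99089038, minus strand), ADH4 (chr4:99144298-99144547, minus), ADH1A (chr4:99290986-99291235, minus), ADH1B (chr4:99321402-99321651, minus), ADH1C (chr4:99352747-99352996, minus) and DAPP1 (chr4:99816577-99816826, plus).
ADH5: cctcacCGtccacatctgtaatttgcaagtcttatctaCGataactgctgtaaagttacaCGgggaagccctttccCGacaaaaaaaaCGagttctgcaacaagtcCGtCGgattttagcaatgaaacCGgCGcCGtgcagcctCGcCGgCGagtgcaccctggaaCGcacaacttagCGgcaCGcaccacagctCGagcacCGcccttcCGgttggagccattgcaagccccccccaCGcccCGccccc
ADH4: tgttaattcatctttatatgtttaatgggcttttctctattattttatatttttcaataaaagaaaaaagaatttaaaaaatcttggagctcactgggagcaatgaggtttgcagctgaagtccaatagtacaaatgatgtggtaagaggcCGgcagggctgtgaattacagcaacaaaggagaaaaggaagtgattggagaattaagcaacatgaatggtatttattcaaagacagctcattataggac
ADH1A: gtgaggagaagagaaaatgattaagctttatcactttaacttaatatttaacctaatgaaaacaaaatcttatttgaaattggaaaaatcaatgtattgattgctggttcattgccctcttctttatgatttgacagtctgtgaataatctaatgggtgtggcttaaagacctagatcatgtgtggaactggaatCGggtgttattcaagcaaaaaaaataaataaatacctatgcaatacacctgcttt
ADH1B: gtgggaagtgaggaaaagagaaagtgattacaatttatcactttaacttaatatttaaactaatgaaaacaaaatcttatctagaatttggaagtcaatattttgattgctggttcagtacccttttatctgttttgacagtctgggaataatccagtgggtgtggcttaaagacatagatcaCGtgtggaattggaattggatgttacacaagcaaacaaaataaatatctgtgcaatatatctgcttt
ADH1C: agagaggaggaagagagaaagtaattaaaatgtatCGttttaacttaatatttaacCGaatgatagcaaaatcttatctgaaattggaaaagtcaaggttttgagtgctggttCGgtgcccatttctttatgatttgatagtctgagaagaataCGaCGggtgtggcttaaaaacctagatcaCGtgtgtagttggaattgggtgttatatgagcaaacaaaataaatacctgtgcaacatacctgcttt
DAPP1: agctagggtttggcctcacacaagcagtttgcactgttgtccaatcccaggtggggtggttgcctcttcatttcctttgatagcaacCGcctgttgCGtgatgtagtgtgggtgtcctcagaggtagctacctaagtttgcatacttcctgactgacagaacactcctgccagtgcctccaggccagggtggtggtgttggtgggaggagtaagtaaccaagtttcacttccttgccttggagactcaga

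ADH5 had 21 CpG in this window and a GC content of 58.0%, and METAP1, whose sequence is not shown, had 37 CpG and 84.4% GC. The CpG numbers of METAP1 and ADH5 were above those of 96.0% and 69.7% of the 34961 RefSeq promoters of the same length, whose median was 11. ADH1C had 6, DAPP1 and ADH7 had 2, and ADH4, ADH6, ADH1A and ADH1B had 1 each. A second RefSeq start of ADH7 also had 1. ADH1A and ADH1B shared 82.2% of aligned bases, ADH1A and ADH1C 81.5%, and ADH1B and ADH1C 81.5%, while no other pair of members was above 55.1%. The palindromic E-box CACGTG, searched on both strands, was found once in ADH1B and once in ADH1C, and 6.35% of all 34961 windows hold it. ADH1A lacks these letters in its window.

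No member promoter carried a peak in any of the 6 lists, counted from 250 bases before the start to 50 bases after it. Over all promoters 13.4% had a peak in at least 1 list, 5.15% had one in all 6, and the share in a single list ran from 7.43% to 10.1%. The nearest peak lay 720 bp from the ADH5 window, 1058 bp from that of METAP1, 2445 bp from that of DAPP1 and 8101 bp from that of ADH4. The 5hmC peaks of the members therefore lay inside the genes or between them. The annotation at hand gives no exons, so peaks were not assigned to exons, introns or untranslated regions.

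**Figure D1:**
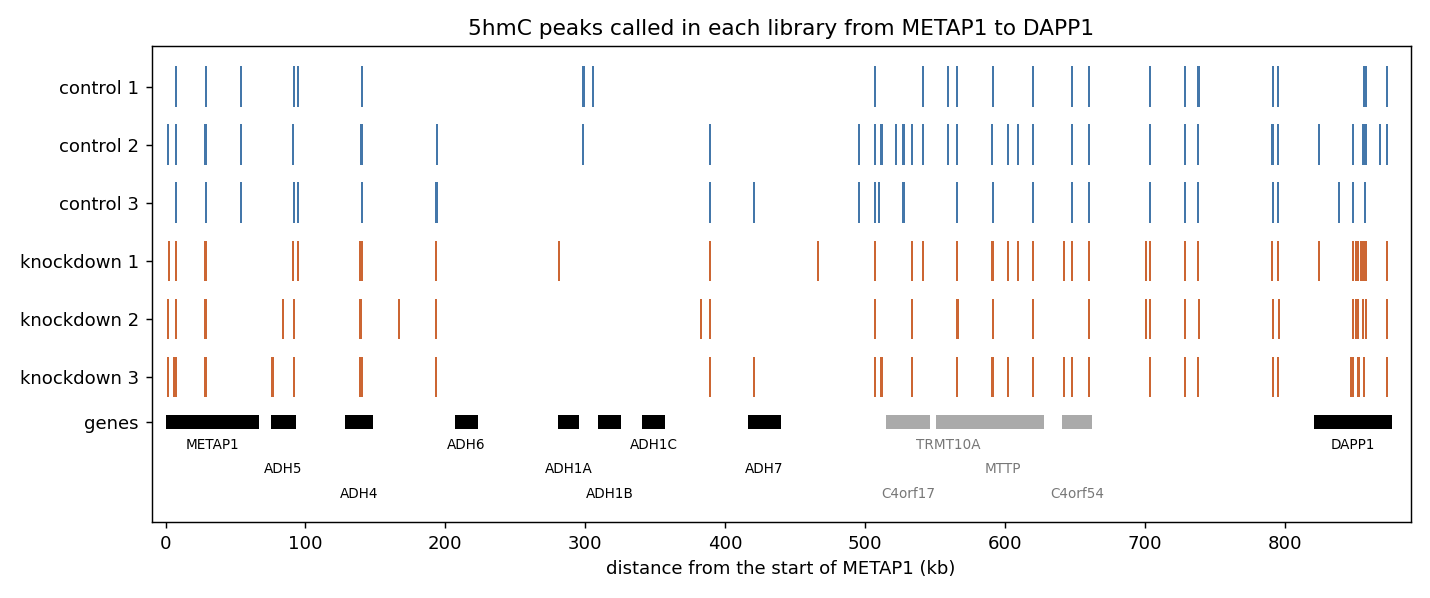
Peaks of the 6 lists along the locus, in kb from the start of METAP1 (horizontal axis), 1 row per library with controls and knockdowns in separate colours, and members (black) and other protein-coding genes (grey) as bars beneath. Peaks under 1.5 kb are drawn 1.5 kb wide so that they can be seen; the stretch from ADH6 to ADH1C is nearly empty in all 6 rows, and peaks gather at METAP1, ADH5, ADH4 and toward DAPP1.

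Peaks covered little of the locus in either group. They took up 1.33%, 2.38% and 1.66% of it in the controls and 2.38%, 1.84% and 2.24% in the knockdowns. The means were 1.79% ± 0.536 (SD, n = 3) and 2.15% ± 0.278 (SD, n = 3), and the groups overlapped, control 2 standing as high as knockdown 1. The difference of 0.360 percentage points became 0.655 without control 2 and 0.132 without control 1. For scale, the median protein-coding gene of at least 5 kb was covered to 2.01% in the controls, and 4648 of the 16814 (27.6%) had no peak in any list.

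The 6 lists merged into 53 regions at the locus, of which 14 (26.4%) had a peak in every list, against 35.5% of 200818 regions genome-wide. Another 13 (24.5%) came from a single library, against 21.7% genome-wide. One region, in DAPP1, had a peak in 3 of 3 knockdowns and 0 of 3 controls, a pattern held by 1.06% of all regions. One region, in METAP1, had the opposite pattern, held by 1.97% of all regions. Both patterns were part of how the locus was chosen, and nothing is read from these counts. Just outside the rule stood 3 regions with a peak in all knockdowns and in control 2 alone, among them 2 in METAP1, chr4:98996778-98997574 and chr4:99022952-99023326. Leaving out control 2 therefore raised the number of knockdown-only regions from 1 to 4, leaving out knockdown 3 gave 3 and leaving out knockdown 2 gave 2. Leaving out control 1, or control 3, raised the number of control-only regions from 1 to 3.

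Counted base by base, peaks of any list covered 34395 bases of the locus, of which 5596 (16.3%) were covered in all 6 lists. Bases covered in 3 of 3 knockdowns and 0 of 3 controls numbered 1298, or 3.77% of the covered bases at the locus, beside 1.07% genome-wide. Bases with the opposite pattern numbered 319, or 0.927%, beside 2.08% genome-wide. These knockdown-only bases stood in 7 stretches, 3 of them in ADH4 and 2 in DAPP1, with 1 in C4orf17 and 1 between ADH4 and ADH6. The control-only bases stood in 2 stretches, of 310 bp in METAP1 and 9 bp in DAPP1. Group-specific peaks were part of how the locus was chosen, and nothing is read from these shares.

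**Figure D2:**
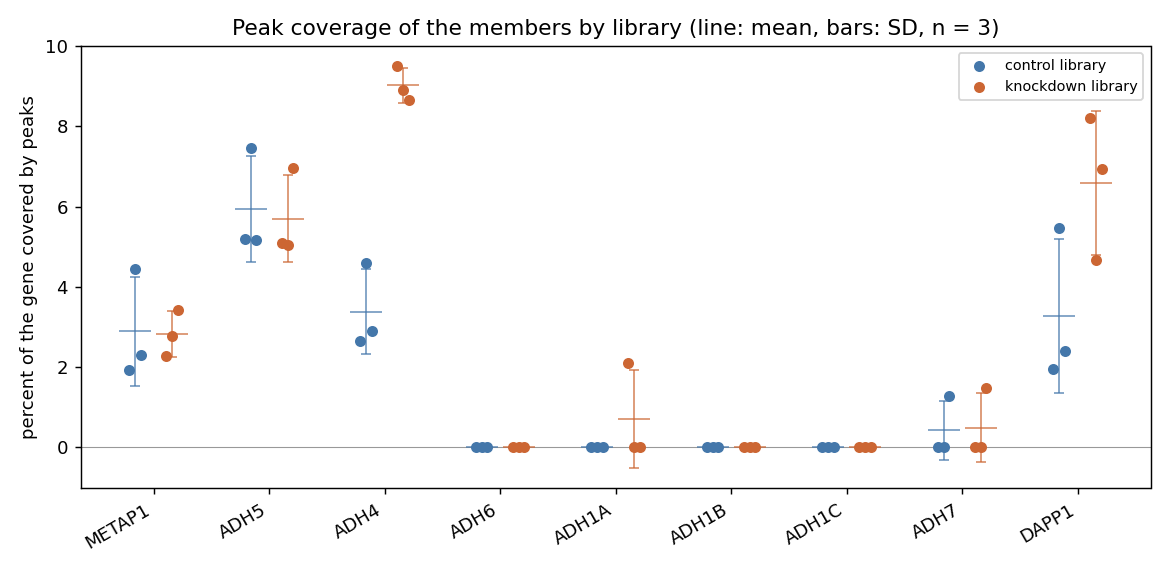
Percent of each member's gene body covered by peaks (vertical axis), with 1 point per library, controls and knockdowns side by side, the group mean as a line and the SD (n = 3) as an error bar. ADH4 is the member whose groups do not overlap, with controls at 2.66% to 4.61% and knockdowns at 8.67% to 9.51%, and ADH6, ADH1B and ADH1C are at 0 in all 6 libraries.

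Among the 9 members the groups did not overlap at ADH4 alone, where the knockdowns were higher. Genome-wide the knockdowns were higher without overlap at 3.05% of the 12166 genes with a peak and lower without overlap at 16.4%. Since the rule used this contrast, nothing is read from the count. A filter of 1% mean coverage, used for the test over all genes, was passed by 4 of the 9 members, METAP1, ADH5, ADH4 and DAPP1. The other five had a peak in at most 2 libraries.

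ADH4 is 20640 bp long on the minus strand (chr4:99123658-99144297). Peaks covered 2.66%, 4.61% and 2.90% of it in the controls and 9.51%, 8.90% and 8.67% in the knockdowns. The lowest knockdown stood well above the highest control. The means were 3.39% ± 1.06 (SD, n = 3) and 9.03% ± 0.433 (SD, n = 3), a ratio of 2.67 and a difference of 5.64 percentage points. Control 2, with the largest peak list, was the highest control, and the difference lay between 5.27 and 6.25 when each library was left out in turn. The long noncoding RNA gene LOC100507053 runs over ADH4, ADH6 and ADH1A on the opposite strand, and pulled-down double-stranded DNA does not tell the strands apart.

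All of the ADH4 coverage came from a single merged region inside the gene, chr4:99133836-99136197, of 2362 bp. It was among the 5 regions of the locus with the highest mean −log10 q-value (30.9) that had a peak in every list. Within it 548, 951 and 598 bp were covered in the controls and 1962, 1837 and 1789 bp in the knockdowns. Summits of more than 1 list gathered at 2 places in it, 1 about 1 kb farther into the gene than the other.

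In control 1 the only peak was chr4:99135623-99136170, with its summit 8379 bp after the gene's start and the authors' fold enrichment of 9.19. Control 3 likewise had only chr4:99135535-99136132, summit at 8359 bp and fold 8.84. Control 2 had this nearer peak with a summit at 8365 bp and a fold of 12.0, and a short second peak, chr4:99134816-99135123, with a summit at 9322 bp and a fold of 4.82. The strongest summit was thus the nearer one in all 3 controls.

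In knockdown 1 the farther peak, chr4:99133836-99135316, was 1481 bp long with its summit at 9325 bp and a fold of 11.9, and the nearer one had a fold of 9.48. In knockdown 3 the farther peak, chr4:99134017-99135334, was 1318 bp long with its summit at 9371 bp and a fold of 12.6, and the nearer one had a fold of 7.40. In knockdown 2 a peak of 1395 bp, chr4:99134741-99136135, spanned both places with its summit at 9293 bp and a fold of 12.4, and another peak had its summit at 10126 bp and a fold of 9.42. The strongest summit was thus the farther one in all 3 knockdowns. The locus was chosen with these peaks in view and no share over other regions of the genome is given, so nothing is read from this split. Folds are the authors' own values and were compared only between peaks of the same list.

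The bases of ADH4 covered in all knockdowns and no control were chr4:99134017-99134424 (408 bp), chr4:99134741-99134815 (75 bp) and chr4:99135124-99135316 (193 bp). The last 2 flank the short second peak of control 2. The strongest ADH4 peak ranked above 70.2%, 83.3% and 70.4% of the peaks in the lists of the controls by q-value and above 84.7%, 86.9% and 87.3% in those of the knockdowns. The lists differ in length, so no change is read from these ranks. The coverage difference at ADH4 was the same, 5.64, when only peaks with a −log10 q-value of at least 5 were kept and when lists were cut to equal numbers of peaks. The weakest ADH4 peak had a −log10 q-value of 9.86, so the cut at 5 could not change the difference.

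**Figure D3:**
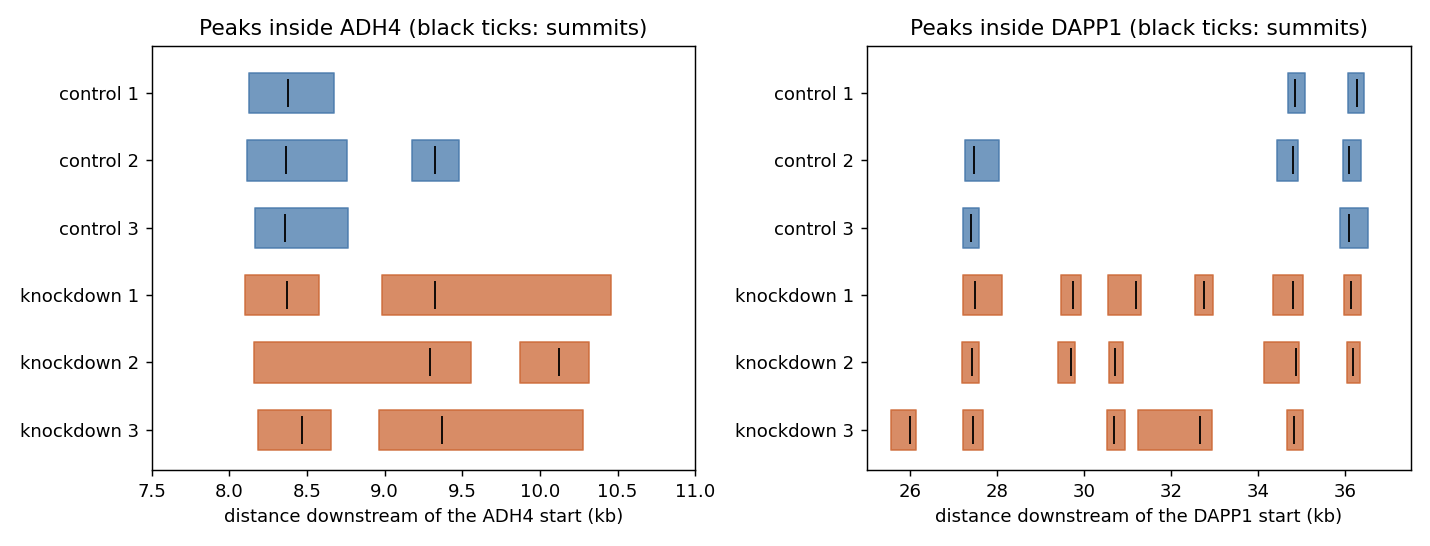
Peaks of each library in the stretches of ADH4 and DAPP1 around the knockdown-only bases, in kb after the gene's start (horizontal axis), 1 row per library, bars for peaks to scale and marks for summits. In ADH4 every control has a summit near 8.4 kb and control 2 a second near 9.3 kb, and the knockdowns' peaks run on past 9.3 kb; in DAPP1 the knockdown-only region lies about 31 to 33 kb after the start.

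DAPP1 is 55507 bp long on the plus strand (chr4:99816827-99872333), at the far end of the locus from METAP1. Peaks covered 1.95%, 5.47% and 2.42% of it in the controls and 8.21%, 4.66% and 6.93% in the knockdowns. The groups overlapped, since knockdown 2 was below control 2, and every other knockdown was above every control. The means were 3.28% ± 1.91 (SD, n = 3) and 6.60% ± 1.80 (SD, n = 3), a ratio of 2.01 and a difference of 3.32 percentage points, which ranged from 2.52 (without knockdown 1) to 4.42 (without control 2) when each library was left out. DAPP1 held 3, 6 and 3 peak summits in the controls and 8, 6 and 6 in the knockdowns.

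The DAPP1 peaks merged into 10 regions, none of which had a peak in every list. The knockdown-only region was chr4:99847343-99849784, 2442 bp long, of which 1151, 327 and 2104 bp were covered in the knockdowns. Knockdown 2 had a single peak there, chr4:99847391-99847717, with a −log10 q-value of 7.07 and its summit 30712 bp after the start. Knockdown 1 had a broad weak peak over the same bases, with a −log10 q-value of 1.59, and a stronger one of 18.8 with its summit at 32751 bp. Knockdown 3 had a peak of −log10 q-value 7.96 over those bases and one of 11.2 with its summit at 32651 bp. Only the 327 bp of the knockdown 2 peak were shared by all 3 knockdowns. With a minimum −log10 q-value of 5, which removes the weak peak of knockdown 1, and with equal numbers of peaks, no region of the locus was knockdown-only.

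The nearest region before it in DAPP1, chr4:99846212-99846756, had a peak in knockdowns 1 and 2 and in no control. Regions of DAPP1 found in a single library were chr4:99842390-99842957 (knockdown 3), chr4:99833805-99834149 (control 3) and chr4:99863116-99863429 (control 2). The following regions near it had peaks in both groups. Region chr4:99844009-99844945 had a peak in controls 2 and 3 and all knockdowns, and chr4:99850956-99851905 in controls 1 and 2 and all knockdowns. Region chr4:99852714-99853348 had a peak in all controls and in knockdowns 1 and 2. Why the libraries differed at DAPP1 was not tested, and a peak that was not called is not an absence of 5hmC.

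METAP1, at the other end, is 67089 bp long on the plus strand (chr4:98995721-99062809). Peaks covered 1.93%, 4.45% and 2.31% of it in the controls and 2.27%, 2.79% and 3.43% in the knockdowns. The groups overlapped widely, with means of 2.90% ± 1.36 (SD, n = 3) and 2.83% ± 0.577 (SD, n = 3). METAP1 held the control-only region, chr4:99049105-99049590, of 486 bp. Its −log10 q-values were 8.56, 12.2 and 11.02 in the controls, and it remained control-only at a minimum of 5, with equal numbers of peaks and without each library in turn.

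Of the 6 regions of METAP1, 2 had a peak in every list. The stronger, chr4:99002154-99003075, had −log10 q-values of 27.7, 38.7 and 34.3 in the controls and 16.2, 7.33 and 13.0 in the knockdowns. It ranked above 77.7%, 76.8% and 83.5% of the control lists' peaks and above 64.4%, 32.4% and 56.7% of those of the knockdowns, in lists of unequal length. The gene thus carried peaks found in both groups, one found in the controls alone, and the 2 regions that only control 2 shared with the knockdowns.

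The first of those 2 regions, chr4:98996778-98997574, covers the microRNA gene MIR3684 inside METAP1. Its hairpin, chr4:98997387-98997460 on the plus strand, was covered over its whole length in control 2 and all 3 knockdowns and not in controls 1 and 3. The mature sequence is printed as the one small RNA of the locus that a peak covered in these lists, from RefSeq (GRCh38.p14), with its seed, bases 2 to 8, in capitals.
hsa-miR-3684: uUAGACCUaguacacguccuu

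ADH5 is 17811 bp long on the minus strand (chr4:99070978-99088788) and was the member with the highest mean coverage in the controls. Peaks covered 5.20%, 7.47% and 5.17% of it in the controls and 5.10%, 5.05% and 6.96% in the knockdowns. The groups overlapped, with means of 5.95% ± 1.32 (SD, n = 3) and 5.70% ± 1.09 (SD, n = 3). Scaling the libraries to the same number of covered bases turned the sign of the small differences at both METAP1 and ADH5.

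The region of ADH5 found in every list, chr4:99086222-99087552, lies within the first part of the gene after its start. Its −log10 q-values were 10.6, 11.8 and 6.85 in the controls and 4.06, 3.14 and 2.26 in the knockdowns. By rank it stood above 43.9%, 35.7% and 23.7% of the peaks in the control lists and above 8.4%, 4.4% and 1.3% of those in the knockdown lists. At a minimum −log10 q-value of 5 the knockdowns lost all their ADH5 peaks, the region became control-only and the difference in coverage went from −0.245 to −5.95 percentage points. The peaks of ADH4 all lay above this threshold, so the cut changed the coverage of ADH5 and not that of ADH4. The q-values, the ranks and the cut at 5 compare lists of unequal length and unlike implied background. No change in 5hmC at ADH5 is therefore read from them.

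Past ADH4 the row of genes was nearly bare. ADH6 (chr4:99202639-99219246), ADH1B (chr4:99304971-99321401) and ADH1C (chr4:99336497-99352746) had no peak in any of the 6 lists, as did 27.6% of all genes of at least 5 kb. ADH1A (chr4:99276369-99290985) had 1 peak in knockdown 1 alone, chr4:99276470-99276778, which covered 2.11% of the gene. ADH7 (chr4:99412263-99435342) had 1 region, chr4:99415769-99416112, found in control 3 (1.28% of the gene) and knockdown 3 (1.49%). These 5 genes thus carried 2 regions, of which neither was shared by a whole group.

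From ADH6 through ADH1C, a stretch of 150.1 kb, there were 3 regions and none was found in more than 2 libraries. Peaks took up 0.509%, 0.414% and 0 of the stretch in the controls and 0.206%, 0 and 0 in the knockdowns. The longest parts of the locus without a peak in any list were 87050 bp over ADH6 (chr4:99189420-99276469) and 76544 bp over ADH1B and ADH1C (chr4:99301065-99377608). The gaps from ADH6 to ADH1A and from ADH1B to ADH1C also held no peak. Between ADH1A and ADH1B peaks covered 5.46%, 4.44% and 0 of the 13985 bp in the controls and none in the knockdowns.

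The gaps on the far side of ADH4 and on the near side of ADH7 were sparsely covered in both groups. Between ADH4 and ADH6 (58341 bp) the coverage was 0, 1.23% and 1.13% in the controls and 1.62%, 2.92% and 2.08% in the knockdowns. The means were 0.788% ± 0.684 (SD, n = 3) and 2.21% ± 0.660 (SD, n = 3). The gap's region chr4:99188144-99189419 had a peak in controls 2 and 3 and in all knockdowns, and 227 bp of it, chr4:99188464-99188690, were covered in all knockdowns and no control. Between ADH1C and ADH7 (59516 bp) the coverage was 0, 0.570% and 0.610% in the controls and 0.838%, 1.26% and 0.630% in the knockdowns, the lowest knockdown being barely above the highest control. A single peak moves such values, and no share over all gaps of the genome was computed.

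Between ADH5 and ADH4 (34869 bp) peaks covered 1.17%, 0 and 0.906% in the controls and 1.18%, 0 and 0 in the knockdowns. Between METAP1 and ADH5 (8168 bp) there was no peak. The gap from ADH7 to DAPP1, 381484 bp long, holds C4orf17, TRMT10A, MTTP and C4orf54, and it was covered to 1.75%, 2.85% and 2.22% in the controls and 2.55%, 1.70% and 2.23% in the knockdowns. The groups overlapped there as they did in each of the 4 genes.

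TRMT10A, a transfer RNA methyltransferase gene, had means of 4.31% ± 1.04 in the controls and 2.75% ± 0.783 in the knockdowns (SD, n = 3 each). MTTP, whose product loads lipid onto apolipoprotein B in liver and gut, had 2.58% ± 0.871 and 2.93% ± 0.746. C4orf17 had 2.55% ± 1.98 and 1.85% ± 0.658, and C4orf54 had 3.66% ± 0.187 and 3.98% ± 1.62. The other regions of highest mean −log10 q-value with a peak in every list lay in this gap: chr4:99614841-99615462 in MTTP (38.5), chr4:99502273-99502987 between genes (37.0), chr4:99560968-99561594 in TRMT10A (27.5) and chr4:99586109-99587121 in MTTP (24.8). These means average over lists of unequal length and unlike implied background. Without control 2 they were 33.5, 31.1, 22.8 and 17.0, with 26.9 at ADH4. The MTTP region at 17.0 was then below chr4:99790274-99791361 between genes (20.6), chr4:99698444-99699042 between genes (19.7) and chr4:99002154-99003075 in METAP1 (19.7).

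**Figure D4:**
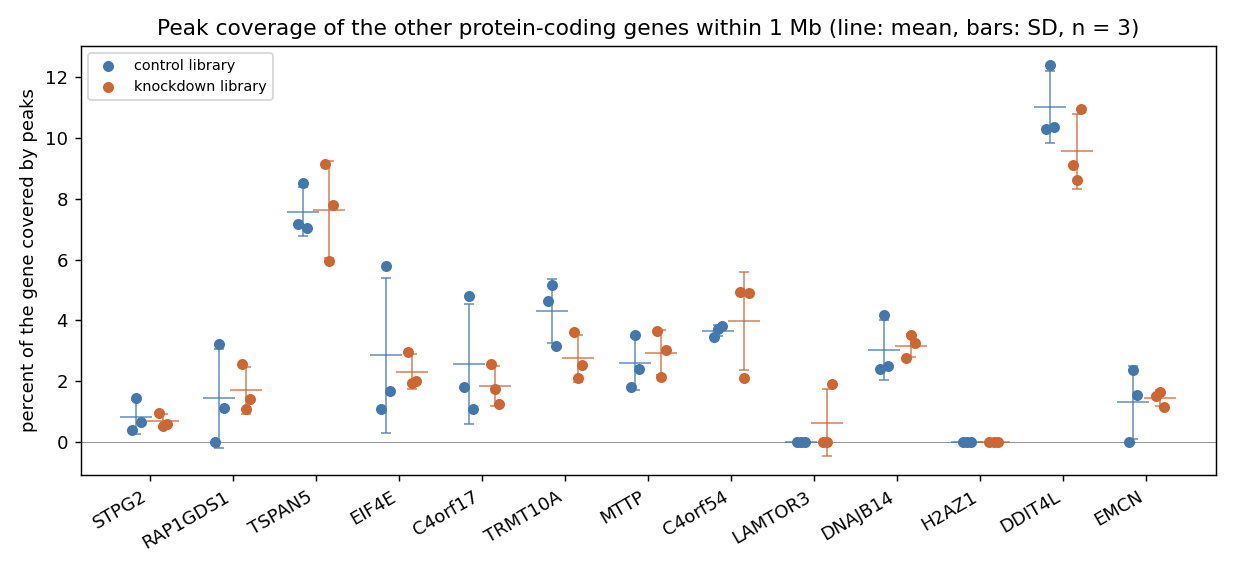
Coverage by peaks of the protein-coding genes in the gaps of the locus and within 1 Mb on either side (vertical axis, percent of the gene), with 1 point per library, the group mean as a line and the SD (n = 3) as an error bar. Groups of the genes in the gap between ADH7 and DAPP1 overlap, and none of the 5 tested flanking genes differed between the groups by limma.

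The genes outside the locus were not used to choose it and could be tested. Of 9 protein-coding genes within 1 Mb, 5 passed the filters, and limma on log2(percent + 1) called none of them at a Benjamini-Hochberg adjusted p of 0.05. None had an unadjusted p under 0.05. Over all 10077 genes tested, 0.179% were called higher in the knockdown and 0.506% lower (0.685% in all, 18 higher and 51 lower, so that 73.9% of calls were lower, and 88.0% when the libraries' medians were left in place). On this log2 scale the median shift of the knockdowns that centring removed was −0.10.

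On the METAP1 side RAP1GDS1, a guanine nucleotide exchange factor gene, differed by 0.44 (SE 0.48, limma adjusted p = 0.701), TSPAN5, a tetraspanin, by 0.10 (SE 0.12, adjusted p = 0.738 by limma) and EIF4E, the cap-binding translation factor, by 0.07 (SE 0.38, limma adjusted p = 0.955). On the DAPP1 side DNAJB14, a heat-shock protein partner, differed by 0.18 (SE 0.19, limma adjusted p = 0.704) and EMCN, an endothelial sialomucin, by 0.35 (SE 0.44, limma adjusted p = 0.743). On this centred scale all 5 differences were above 0 and each was smaller than its standard error. Across the alternative settings their smallest adjusted p ran from 0.305 to 0.847. STPG2 and LAMTOR3 were below the filter on coverage. H2AZ1 and DDIT4L are shorter than 5 kb: H2AZ1 had no peak, and DDIT4L was covered to 11.02% ± 1.19 in the controls and 9.57% ± 1.23 in the knockdowns (SD, n = 3 each).

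Other genes of the members' pathways lie elsewhere in the genome. A list of 45 genes of alcohol, aldehyde and retinol oxidation outside the cluster had 25 tested, 13 without a peak in any list, and 0 called in either direction by limma, with 5 at an unadjusted p under 0.05. Of all 10077 genes tested 1360 (13.5%) had such a p. Of the 25 differences 6 were above 0 and 19 below, with a median of −0.14, beside 0.02 over all genes tested. The median coverage of the list in the controls was 1.97%.

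The 4 genes of smallest p are named. Of all 12166 genes with a peak, 3.05% were higher in the knockdowns without overlap and 16.4% lower. RDH10, which makes retinaldehyde from retinol, had 5.39%, 8.73% and 5.55% in the controls and 9.44%, 9.86% and 9.43% in the knockdowns (log2 difference 0.61, SE 0.15, limma adjusted p = 0.168). The knockdowns were above every control, and RDH10 passed the test (log2 difference 0.75, limma adjusted p = 0.0345) only when the lists were cut to equal numbers of peaks. ALDH3A1, an aldehyde dehydrogenase of cornea and stomach, had 8.59%, 8.38% and 7.29% in the controls and 4.11%, 3.95% and 5.68% in the knockdowns (−0.61, limma adjusted p = 0.208). All knockdowns were below all controls, and ALDH3A1 passed the test (−0.54, limma adjusted p = 0.0108) only when peak summits per 10 kb replaced coverage.

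SORD and AKR1B1, the enzymes of the polyol pathway, were also lower in every knockdown than in any control, as were 16.4% of all genes with a peak. SORD had 3.86%, 4.93% and 5.80% in the controls and 3.31%, 1.99% and 2.06% in the knockdowns (−0.67, limma adjusted p = 0.253). AKR1B1 had 12.4%, 12.0% and 12.7% in the controls and 5.65%, 8.37% and 4.87% in the knockdowns (−0.80, limma adjusted p = 0.255). Neither passed the test under any setting tried.

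A list of 39 genes of phosphoinositide and B-cell receptor signalling, where DAPP1 acts, had 29 tested, 0 called in either direction by limma and 4 at an unadjusted p under 0.05, beside 13.5% of all genes tested. Of its differences 16 were above 0 and 13 below, with a median of 0.03. PLEKHA2, which like DAPP1 binds phosphoinositides through a PH domain, had 13.6%, 13.6% and 13.0% in the controls and 8.66%, 8.98% and 8.46% in the knockdowns (−0.47, limma adjusted p = 0.228). Its knockdowns were lower without overlap, as at 16.4% of all 12166 genes with a peak, and it passed the test under no setting tried. Its relative PLEKHA1 had 1.43%, 4.71% and 2.05% in the controls and 3.96%, 4.65% and 4.003% in the knockdowns (0.68, limma adjusted p = 0.364), with control 2 the highest of all.

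GAB2, a docking protein, had 10.3%, 14.3% and 9.55% in the controls and 16.5%, 12.4% and 13.3% in the knockdowns (0.39, limma adjusted p = 0.246), with overlapping groups. MAP4K1, a kinase of blood cells, had 4.68%, 4.36% and 3.27% in the controls and 2.85%, 0.284% and 0.145% in the knockdowns (−1.41, limma adjusted p = 0.264). Its knockdowns were lower without overlap, as at 16.4% of all genes with a peak. Without knockdown 1, the highest of the knockdowns, MAP4K1 passed the test (−1.91, limma adjusted p = 0.0494).

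The third list held 17 genes of initiator methionine removal and of the modification of protein amino termini. Limma called 0 of its 11 tested genes in either direction, with 3 at an unadjusted p under 0.05, beside 13.5% of all genes tested. Of the differences 7 were above 0 and 4 below, with a median of 0.09. NAA30, an acetyltransferase subunit, had 1.77%, 3.72% and 1.79% in the controls and 3.91%, 4.78% and 3.89% in the knockdowns (0.74, limma adjusted p = 0.238). NAA40, which acetylates histones, had 9.73%, 6.11% and 5.97% in the controls and 2.50%, 4.91% and 2.65% in the knockdowns (−0.84, limma adjusted p = 0.352). The groups of both did not overlap, in opposite directions. NAA30 was higher in the knockdowns, as were 3.05% of all genes with a peak, and NAA40 lower, as were 16.4%. NAA16 differed by 0.35 (limma adjusted p = 0.282) and METAP1D, the mitochondrial relative of METAP1, by 0.94 (limma adjusted p = 0.376), and the groups of both overlapped.

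On the scale of the fit, log2(percent + 1) with each library's median deviation removed, the locus had values of 1.24, 1.51 and 1.44 in the controls and 1.68, 1.67 and 1.71 in the knockdowns. The protein-coding genes elsewhere whose values on that scale were most like these over the 6 libraries were ANKRD44 on chromosome 2 and ICA1 on chromosome 7 (Pearson r = 0.997 each), SUGCT on chromosome 7 (0.996), TYRP1 on chromosome 9 (0.994) and PTPRM on chromosome 18 (0.993). As a percent of the gene, ICA1, an islet cell autoantigen, was covered to 10.5%, 17.3% and 13.0% in the controls and 18.5%, 15.8% and 17.6% in the knockdowns. TYRP1, a melanin-synthesis enzyme, had 6.71%, 14.6% and 10.5% and then 18.2%, 14.2% and 16.3%. As percents, in both genes control 1 was lowest and knockdown 1 highest, and control 2 stood among the knockdowns. On the scale of the fit, which r used, the locus had every knockdown above every control, with knockdown 3 highest. The locus was chosen with this contrast in view, so nothing is read from that. These genes were picked from all genes for their likeness over 6 points that share libraries and peak numbers, so r is given as a description with no test.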

How the data were processed

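The labels' protocols describe hMe-Seal libraries of SH-SY5Y cells, 3 control and 3 TDP-43 knockdown, and replicate numbers are those of the labels. The submitters' processing notes name hg38, Bowtie2 2.4.4, SAMtools and MACS2 2.2.6 without role or order. The input library was not used here. Its part in peak calling, the alignment parameters, filters and read totals remain not given in the sources used here.

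Each library has its own list deposited by the authors. Per the file columns, the deposited values of a peak are its position and summit, its score, its fold enrichment over background, and its p-value and q-value on the −log10 scale. These are the authors' own values, used to describe, rank or filter peaks within a list and for the background described next. The depth is unknown, so no counting intervals are given. An implied background was read by matching the 60 commonest pairs of deposited fold and p-value in each list to a Poisson tail (30 to 60 matched).

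Computed here, on chromosomes 1 to 22 and X, were merged regions (overlapping or adjoining peaks of the 6 lists), the percent of each gene covered, and bases covered per list. Gene positions and sequences came from RefSeq tables of GRCh38.p14, which matched all 9 members. Coverage as log2(percent + 1), with each library's median deviation removed, was tested by limma 3.58.1 in R 4.3.3 with a variance trend over the 10077 protein-coding genes of at least 5 kb and 1% mean coverage, with Benjamini-Hochberg adjustment at 0.05. The log2 scale understates changes of sparsely covered genes. The fit was tested on simulated data. Other steps used Python 3.11.15, pandas 2.3.3 and Biopython 1.88, whose global alignments gave the shared bases of promoters (match 1, mismatch −1, gap opening −2, extension −0.5).

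The members, gene lists and markers were chosen with earlier results of these data known. One marker gene is not reported here. Genes named were every member, every protein-coding gene in a gap or within 1 Mb, up to 4 of smallest p in each list, and the 5 genes whose profile was most like the locus. Regions named were the group-specific ones and the 5 of highest mean −log10 q-value found in all lists, and others were chosen after their values were seen. Alternatives tried were a −log10 q-value of at least 5, equal numbers of peaks, no centring, quantile normalization, pseudocounts of 0.25 and 4, no filter, summits per 10 kb, a replicate block, each library left out and other definitions of a group-specific region.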

Additional observations from a re-analysis of the deposited data

How the results depend on the processing

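The 1 control-only region at the locus became 2 at a −log10 q-value of at least 5 (METAP1 and ADH5) and 2 when single-base stretches were counted, and 1 to 3 when each library was left out. The 1 knockdown-only region became 0 at that q-value and 0 with equal numbers of peaks, 7 as single-base stretches, and 1 to 4 when each library was left out. Counting single-base stretches, and scaling the libraries to the same covered bases for the locus and the gaps, were chosen after seeing the data. When a peak within 500 bp counted, both counts stayed at 1 with the same regions. When at least 50% of a region had to be covered, the control-only region was that of METAP1 again, and the 1 knockdown-only region was chr4:99133836-99136197 in ADH4 in place of the one in DAPP1. The coverage difference at ADH5, −0.245, was −5.95 at the stricter q-value and −4.27 with equal numbers of peaks. In the list of alcohol and aldehyde oxidation genes 1 gene passed with equal numbers of peaks and 1 with summits per 10 kb, and among the DAPP1 partners 0 to 1 passed when each library was left out, the 1 being MAP4K1 without knockdown 1. The smallest limma adjusted p over all settings ran from 0.0108 to 0.461 in the first list, 0.0494 to 0.539 in the second and 0.107 to 0.550 in the third.

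Calls over all genes tested, 18 higher and 51 lower, moved with the setting: 20 and 97 at the stricter q-value, 30 and 71 with equal numbers of peaks, 13 and 95 without centring, 29 and 96 with summits per 10 kb, 37 and 66 once control 2 was left out, 4 and 9 for control 3, and 12 and 71, 12 and 53, and 8 and 55 for knockdowns 1, 2 and 3. With the replicate number as a block, limma called 0 genes in each of the 4 lists and 0 over all genes, with 1052 at an unadjusted p under 0.05. The deviations of libraries of the same number had correlations of −0.125, −0.082 and −0.014. With 3 libraries a group the deviations are tied to each other, so these values cannot decide whether the numbers pair the samples. Depth is unknown, and peaks that miss the caller's threshold in a shallow library cannot be told from absent 5hmC. With 3 libraries a group, a coverage resting on 1 or 2 peaks has little precision.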
